A study of Mus musculus with 16 samples.

Results

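The data describe how replicate 3 of a mouse embryonic stem cell series differed from replicates 1 and 2 in the mRNA fraction. The libraries compared were the wild type and the Dnmt2 knockout library numbered 3 in the labels, 2 libraries, against the 4 libraries numbered 1 and 2. Together they are the 6 rRNA-depleted long-fraction libraries among the 16 of the series. Replicate 3 was chosen by its transcript coverage, which stood apart. Coverage differences between replicate 3 and the others are therefore given below as descriptions, with no p-value as support.

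The study set wild type against Dnmt2-/- stem cells of the J1 background by RNA bisulfite sequencing, in which unmethylated cytosines are converted and 5-methylcytosines are not. Both genotypes grew on primary mouse embryonic fibroblast feeders in 15% serum with 500 U/mL of the LIF preparation ESGRO, and feeders were taken away by letting them attach to dishes for 40 to 60 min, in 2 rounds. RNA longer than 200 nt was depleted of rRNA, and its reads were listed on 15330 RefSeq mRNA references (13275 genes). The labels give a replicate number to each library and do not say whether replicates are separate cultures, lines or preparations, so the spread between them may be technical. Nor do they say whether wild type and knockout libraries of the same number share a day, a batch or anything else, so replicate 3 here means only the libraries numbered 3. Knockout cells lack Dnmt2, a cytosine methyltransferase of tRNAs whose gene symbol is Trdmt1, in every library of that genotype.

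Embryonic stem cells kept in serum and LIF are a mixture of states. Naive pluripotency is carried by factors such as Klf4, Esrrb, Tfcp2l1 and Nanog downstream of LIF and Stat3, and FGF and ERK signalling drives cells towards a formative state marked by Pou3f1, Otx2 and Fgf5. A small and changing share of cells in such cultures passes through a state that resembles the totipotent embryo and transcribes the Zscan4 and Tcstv genes. Embryonic fibroblasts, used as feeders, are known by collagens, Thy1 and Vim. Replication-dependent histone mRNAs, which end in a stem-loop in place of a poly(A) tail, are made during S phase.

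Each value below is the mean number of reads per cytosine of a transcript, after all libraries were thinned to the depth of the shallowest and scaled, called coverage here. Values are given for replicates 1, 2 and 3 in that order. A log2 difference is replicate 3 minus replicates 1 and 2 on log2 of coverage plus 0.5, with genotype as a covariate, 2 libraries against 4, and its standard error (SE) comes from limma. A transcript is called where the Benjamini-Hochberg adjusted p of limma is under 0.05. On this scale small values are compressed, which understates differences of low transcripts. Cytosines with fewer than 3 reads after thinning count as not covered, which can overstate them instead. Which of these prevails for a given transcript was not tested. In such bulk samples, fewer cells of a type and less RNA per cell cannot be told apart.

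Wild type replicate 3 was the shallowest library, with a summed coverage of 37786723 over 2304342 cytosines, against 79955585 to 143488903 in the other 5. Replicate 3 also held more coverage at the 5′ end. Of the coverage in the first 1000 nt of 10446 transcripts, the first 50 nt held 2.39% in wild type replicate 3 and 1.94% in knockout replicate 3, against 1.44% and 1.87% in wild type replicates 1 and 2 and 1.43% and 1.37% in knockout replicates 1 and 2. Wild type replicate 2 sat near knockout replicate 3 in this measure. Some references list cytosines only near their 5′ end, and of the 315 tested transcripts with none listed beyond nt 200, 23 were called higher and 7 lower, with a median log2 difference of 0.37. The part of this shift in the differences of single genes was not tested, and the last listed position is given for the genes named here that have none listed beyond nt 300. The targeted gene, Trdmt1, had coverage of 2.29, 2.13 and 1.99 in wild type cells and 1.02, 0.237 and 0.699 in knockout cells, lower in every knockout library than in every wild type one. Stem cell transcripts were covered in all 6 libraries: Pou5f1 lay between 67.8 and 110.6 and Dppa5a between 399 and 852.

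Of 9047 transcripts that passed a mean coverage of 1, 164 were called higher (1.81%) and 256 lower (2.83%) in replicate 3. Both replicate 3 libraries lay above all 4 others for 1280 transcripts (14.1%) and below all 4 for 1616 (17.9%). Within each genotype separately, replicate 3 was above both other libraries in both genotypes for 1824 (20.2%) and below for 2337 (25.8%). These shares over all tested transcripts are the background for the list counts below. The same difference taken separately within wild type and within knockout, which share no library, had Pearson's r of 0.62 over 3734 transcripts at a mean coverage of 5 or more. This correlation runs across genes, which are not independent replicates. Replicate 3 was chosen on this same coverage, so the correlation and the 2-fold counts that follow are descriptions and no separate support. Of 58 such transcripts at least 2-fold lower in wild type replicate 3, 56 were also lower in knockout replicate 3, and of 31 at least 2-fold higher, 26 were also higher. A test of whether the difference itself depended on genotype called 3 of 9047 transcripts (0.0332%). With 1 replicate 3 library per genotype that test can miss large differences, so few calls do not show that the genotypes were alike. The calls rest on few libraries: leaving out wild type replicate 1 left 25 higher and 55 lower, wild type replicate 3 left 4 and 21, knockout replicate 1 left 0 and 1, knockout replicate 2 left 0 and 6, and knockout replicate 3 left 0 and 5, while 180 and 280 were called without wild type replicate 2. Where no transcript was called higher, limma gave an unadjusted p under 0.05 for 2067, 1733 and 1403 transcripts in either direction, and no other tool was run. Of the 52 called transcripts that the rule for named genes picks, 6 (Zscan4f, Etv4, Id1, Chac1, Ndufs1 and Cox7a1) were called in none of the 6 fits that left out a library, 23 in 1 fit, 20 in 2 fits, 1 in 3 fits (Mymx) and 2 in 5 fits (Stra8 and Lrtm1).

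**Figure D1:**
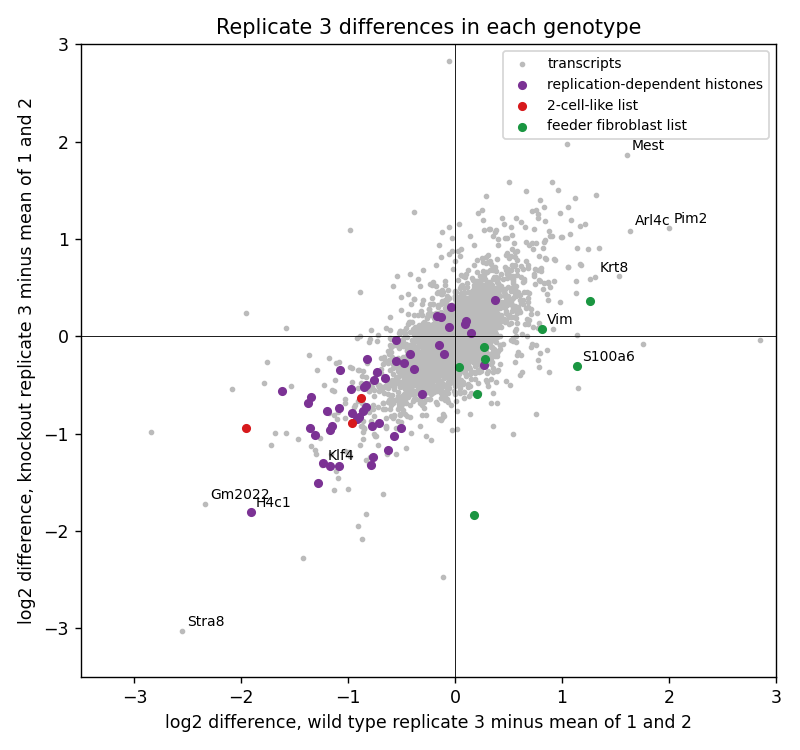
Log2 difference of replicate 3 from the mean of replicates 1 and 2 in wild type (x axis) and knockout (y axis), 1 point per transcript at a mean coverage of 5 or more, with 3 gene lists coloured. 3728 transcripts are drawn and 6 lie outside the axes; Stra8, Gm2022, H4c1 and Klf4 lie low in both genotypes and Mest, Pim2 and Arl4c high in both, while Vim and S100a6 lie well above 0 in wild type and near or below 0 in knockout.

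The naive pluripotency genes called in replicate 3 were all lower. Of 20 genes on the list 18 were tested. Called lower were 3 (Klf4, Tet2 and Jam2), beside 2.83% of all tested transcripts, and none was called higher, beside 1.81%. In both genotypes 9 were below both other libraries, beside 25.8%, and none was above, beside 20.2%. The median log2 difference was -0.32 against -0.04 over all tested transcripts. The list's median was -0.13 with a filter at a mean of 5 or 10, -0.21 without transcripts unlisted in a library and -0.50 with no filter. Klf4, a Krüppel-like factor of the naive network and one of the reprogramming factors, had coverage of 12.6, 22.8 and 6.88 in wild type cells and 21, 17.7 and 7.39 in knockout cells. Both replicate 3 libraries lay below all 4 others, and the log2 difference was -1.28 (SE 0.22). Tet2, which oxidises 5-methylcytosine in DNA, had 3.74, 4.37 and 1.63 in wild type cells and 5.53, 5.87 and 2.78 in knockout cells, with a log2 difference of -1.01 (SE 0.13). Its groups did not overlap either. Jam2, a junctional adhesion molecule, had 6.67, 8.15 and 3.18 in wild type cells and 11.2, 10.0 and 6.01 in knockout cells, a difference of -0.93 (SE 0.14).

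The other naive genes tested were not called. Zfp42 (Rex1), a zinc finger marker of naive cells, had 169.6, 134 and 130.0 in wild type cells and 159.9, 154 and 152 in knockout cells, and its difference was -0.13 (SE 0.12). Klf2 and Klf5, relatives of Klf4, differed by -0.19 and 0.00, and Tfcp2l1 by 0.07. None of these passed. Nanog, a homeodomain factor of pluripotency, was read on only 24 cytosines and had 3.05, 2.49 and 1.76 in wild type cells and 4.47, 7.38 and 2.98 in knockout cells, lower within each genotype and not called (-0.69 (SE 0.21)). Dppa3, an oocyte and naive cell factor, and Gbx2, a homeobox target of LIF signalling, lay below all 4 other libraries in both replicate 3 libraries without being called (-0.69 and -0.57). Pecam1, an adhesion molecule, was read on 21 cytosines, with 4.61, 1.49 and 0 in wild type cells and 0.146, 2.19 and 1.73 in knockout cells, and its libraries followed no common order (-0.96 (SE 0.92)). Dppa5a differed by -0.43. The RNA of Esrrb was listed at 1 cytosine, too few to describe.

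Among the 19 general pluripotency genes, all tested, 2 were called lower and 1 higher, with a median of -0.16. Tdgf1 (Cripto), the co-receptor of Nodal, had 104, 85.3 and 55.4 in wild type cells and 112, 120.0 and 65.5 in knockout cells. Its replicate 3 values were the lowest 2, and the difference was -0.79 (SE 0.11). Dppa2, a chromatin factor that acts upstream of 2-cell genes, had 16, 14.3 and 9.65 in wild type cells and 17, 16.2 and 10.9 in knockout cells and a difference of -0.61 (SE 0.09). Its partner Dppa4 lay below all 4 others as well but was not called (-0.55 (SE 0.17)). Lin28a, the RNA-binding protein that blocks let-7 maturation, was the one called higher, with 15.6, 15.8 and 22.9 in wild type cells and 17.5, 18 and 29.8 in knockout cells. Both of its replicate 3 values exceeded all others (0.63 (SE 0.09)). Pou5f1 (Oct4), the core factor of pluripotency, had 77, 111 and 75.8 in wild type cells and 83.6, 78.8 and 67.8 in knockout cells, and Sox2, its partner, 24.3, 31.1 and 22.2 in wild type cells and 24.4, 28.5 and 22.2 in knockout cells. Each lay below all 4 others in replicate 3 by a narrow margin, with differences of -0.27 (SE 0.15) and -0.27 (SE 0.13), and neither was called. Epcam, an epithelial adhesion molecule, was higher within each genotype by 0.32 (SE 0.11). Dnmt3l, the cofactor of the de novo DNA methyltransferases, was read up to position 114 and differed by 0.95 (SE 0.41). Neither was called.

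Transcripts of the 2-cell-like state shared a direction. Of 15 genes on the list 14 were listed and 7 tested. For all 7 tested both replicate 3 libraries lay below all 4 others, beside 17.9% of all tested transcripts. Of these, 5 were called lower, beside 2.83%, and the median difference was -1.11. Zscan4c, a zinc finger gene active in 2-cell embryos and needed for telomere upkeep in stem cells, had 8.37, 6.24 and 2.54 in wild type cells and 3.7, 4.49 and 1.4 in knockout cells, a difference of -1.31 (SE 0.16). Zscan4f had 17, 10.3 and 3.04 in wild type cells and 7.94, 8.53 and 4.04 in knockout cells (-1.45 (SE 0.27)), and Zscan4b differed by -0.93. Tcstv1, of another family transcribed in this state, had 17.9, 16.6 and 9.15 in wild type cells and 10.7, 12.3 and 7.21 in knockout cells (-0.76 (SE 0.11)), and its relative Tcstv3 differed by -1.22. Zscan4d and Arg2 were below all others and not called. The Zscan4 genes, and likewise the Tcstv genes, are near-identical copies that can share reads, so the split between members is uncertain. The counts of 7 and 5 therefore do not stand for as many separate genes and carry no weight of their own. Gm2022, a predicted gene, was among the 12 lowest of all transcripts, with 10.4, 7.04 and 1.28 in wild type cells and 5.71, 7.84 and 1.69 in knockout cells (-2.03 (SE 0.22)). Eif4a3l1 was also among them, with 15.4, 13.2 and 5.49 in wild type cells and 12.5, 10.9 and 4.76 in knockout cells (-1.26 (SE 0.11)).

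Germline genes were low in coverage, and the most marked difference was in Stra8, a retinoic acid target that meiotic entry requires. Stra8 had coverage of 6.45, 5.25 and 0.572 in wild type cells and 9.17, 9.74 and 0.722 in knockout cells. Both replicate 3 libraries lay far below the other 4, and the log2 difference was -2.79 (SE 0.16). Dazl, an RNA-binding protein of germ cells, was listed at 0 in both replicate 3 libraries and at 0.61 to 5.53 in the others, on 17 cytosines. Mael, a factor of transposon silencing, had 2.46, 2.29 and 1.51 in wild type cells and 4.81, 4.73 and 3.01 in knockout cells and was lower within each genotype without being called (-0.55 (SE 0.13)). Sycp3, of the synaptonemal complex, differed by -0.30. Of 6 tested germline genes 1 was called, and Prdm1, the regulator of germ cell specification, lay above all 4 others at 0.902, 0.608 and 2.05 in wild type cells and 1.22, 1.16 and 1.7 in knockout cells, not called. Prdm1 passed the filter at a mean of 1 only through replicate 3, so its place above the others carries no weight of its own.

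**Figure D2:**
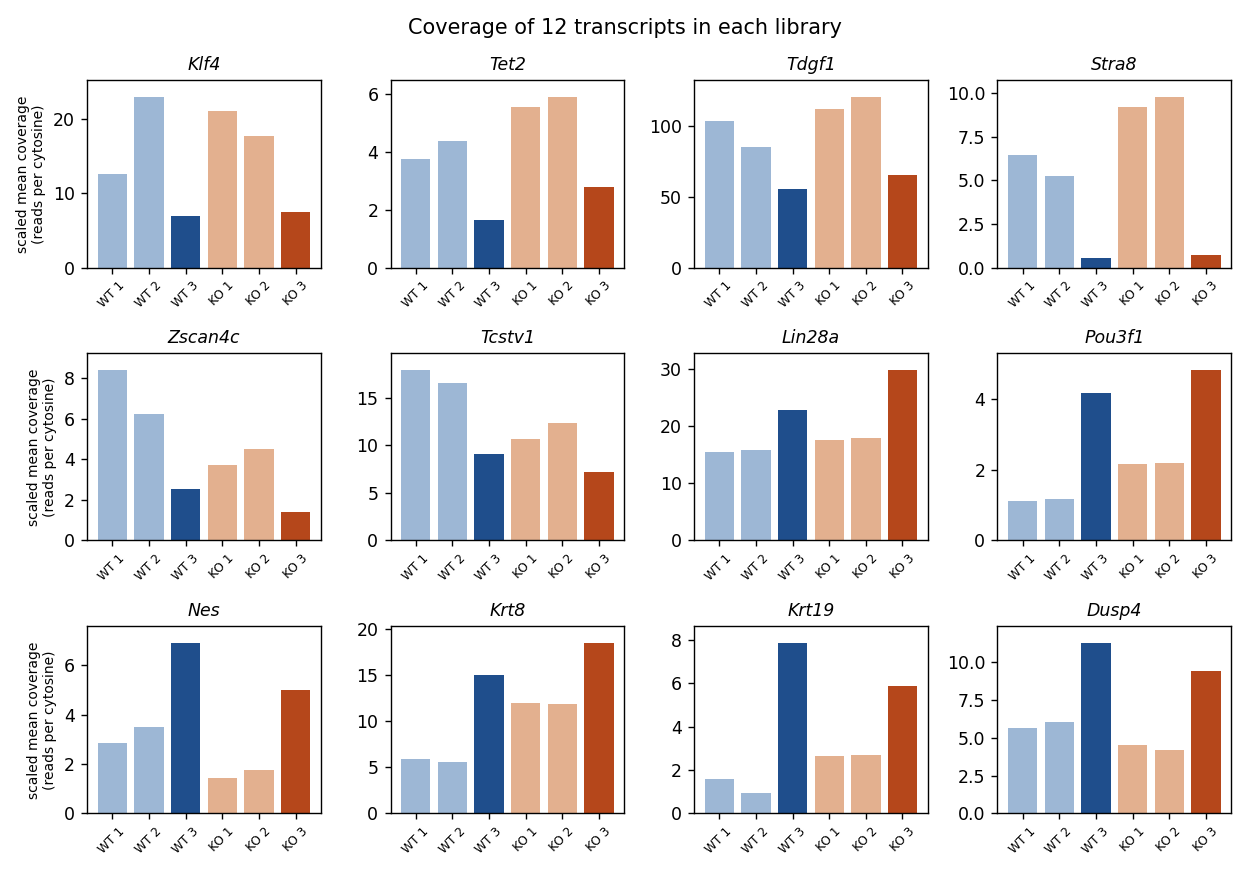
Scaled mean coverage (reads per cytosine) of 12 transcripts in each of the 6 libraries, 1 bar per library, dark bars for replicate 3, each panel with its own y axis from 0. Klf4, Tet2, Tdgf1, Stra8, Zscan4c and Tcstv1 are lower in both replicate 3 libraries than in all 4 others, and Lin28a, Pou3f1, Nes, Krt8, Krt19 and Dusp4 higher.

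Many feeder fibroblast genes had more coverage in wild type replicate 3 than in wild type replicates 1 and 2. Of 34 genes on the list 29 were listed and 19 tested, none was called, and the median difference was 0.75 within wild type and -0.23 within the knockout. Of the 19, 15 were above both other wild type libraries in wild type replicate 3, beside 33.6% of all tested transcripts, and 13 were below both other knockout libraries in knockout replicate 3, beside 42.6%. The summed coverage of the 29 genes was 276 in wild type replicate 3, 169 and 148 in wild type replicates 1 and 2, 147 and 138 in knockout replicates 1 and 2, and 122 in knockout replicate 3. Leaving out wild type replicate 3 turned the list's median from 0.38 to -0.23.

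Vim, the intermediate filament of mesenchymal cells, had 44.2, 37.8 and 72.2 in wild type cells and 16.9, 16.1 and 17.3 in knockout cells. Wild type replicate 3 stood alone above the rest. Fbln2, a fibulin of the extracellular matrix, had 1.23, 1.11 and 9.26 in wild type cells and 1.57, 1.74 and 2.67 in knockout cells, read on 62 cytosines. Bgn, a small proteoglycan of collagen matrix, had 0.881, 1.67 and 5.93 in wild type cells and 1.34, 1.47 and 1.32 in knockout cells, and Thy1, the surface antigen used to sort fibroblasts, 0.927, 1.06 and 3.77 in wild type cells and 1.57, 1.41 and 1.33 in knockout cells. S100a6, a calcium-binding protein, had 18.7, 16.2 and 38.9 in wild type cells and 21.1, 16.9 and 15.1 in knockout cells. In each of these wild type replicate 3 was highest. Lgals1, a galectin, had 32.1, 22 and 32.2 in wild type cells and 27.6, 25.6 and 24.6 in knockout cells, close between replicates. Timp3, an inhibitor of matrix metalloproteases, had 0.902, 0.859 and 2.57 in wild type cells and 0.97, 1.1 and 2.26 in knockout cells, and both replicate 3 libraries lay above all 4 others (1.00 (SE 0.24), not called). Of the 19 tested feeder genes, 5 including Timp3 were above both other libraries in both genotypes, beside 20.2% of all tested transcripts. Timp3 passed the filter at a mean of 1 only through its replicate 3 values.

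Collagen transcripts were low. Col1a1 and Col1a2, the chains of type I collagen, had 1.57, 4.05 and 2.86 in wild type cells and 1.88, 1.18 and 0.40 in knockout cells and 2.42, 2.8 and 4.72 in wild type cells and 1.78, 1.68 and 1.18 in knockout cells, with knockout replicate 3 lowest in both. Col3a1 did not pass the filter and had 0.231, 0.34 and 3.02 in wild type cells and 0.0856, 0.153 and 0.472 in knockout cells. Acta2, smooth muscle actin, had 8.71, 8.16 and 9.62 in wild type cells and 11.9, 11 and 2.84 in knockout cells, so that knockout replicate 3 was the low library and wild type replicate 3 close to its group. The interaction of replicate 3 with genotype gave Acta2 a log2 value of -2.01. Each genotype has 1 library numbered 3, and coverage chose it, so a difference between the genotypes was not shown for any one feeder gene.

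**Figure D3:**
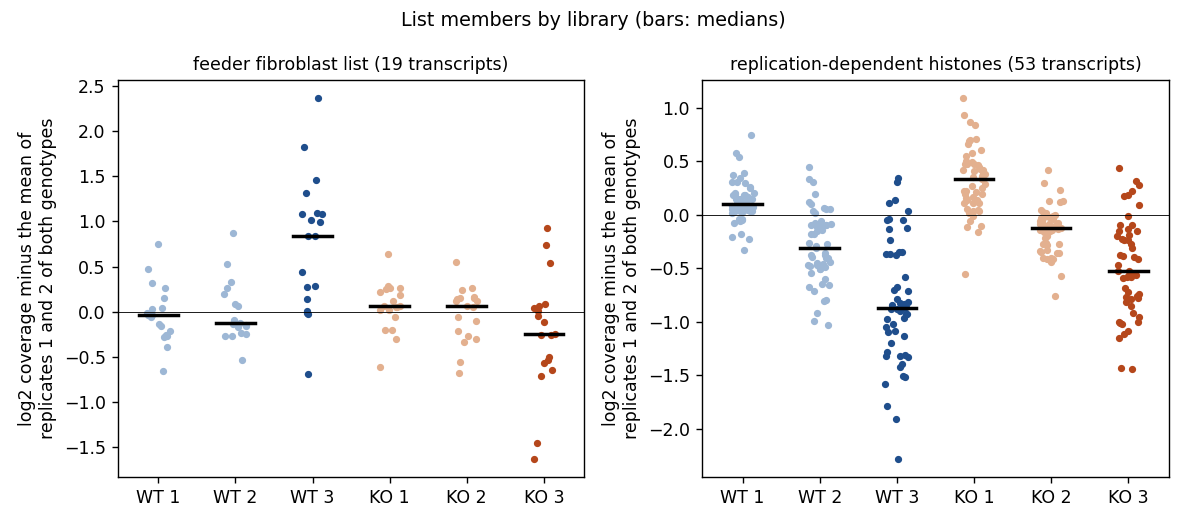
Log2 coverage of each tested list member in each library, relative to the mean of replicates 1 and 2 of both genotypes, for 19 feeder fibroblast genes (left) and 53 replication-dependent histone transcripts (right), bars at the medians. The median of the feeder genes is highest in wild type replicate 3, while histones lie low in both replicate 3 libraries and somewhat low in wild type replicate 2.

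Genes that mark formative cells and the first lineages were listed at low coverage, and many did not pass the filter. Pou3f1, a POU factor of formative cells, was called higher, with 1.11, 1.18 and 4.19 in wild type cells and 2.18, 2.18 and 4.82 in knockout cells and a difference of 1.25 (SE 0.18). Dnmt3b, a DNA methyltransferase raised on exit from the naive state, was read on 30 cytosines at 1.39, 0.568 and 4.89 in wild type cells and 1.02, 1.37 and 2.15 in knockout cells, above all others and not called. Otx2 was listed on 3 cytosines up to position 163, and Fgf5 on none. Grhl2, an epithelial transcription factor, differed by 0.74, Zic2 by 0.18 and Dnmt3a, read up to position 173, by 0.15. Of 13 formative genes 7 were tested and 1 called.

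All 4 tested trophoblast genes lay above the 4 other libraries in both replicate 3 libraries, and 2 were called. Krt8, a keratin of simple epithelia, had 5.93, 5.6 and 15 in wild type cells and 12, 11.9 and 18.5 in knockout cells (0.96 (SE 0.16)). Its partner Krt18 had 3.6, 2.61 and 7.33 in wild type cells and 6.17, 5.97 and 8.43 in knockout cells and was not called (0.79 (SE 0.19)). Krt19, another simple epithelial keratin, had 1.6, 0.94 and 7.86 in wild type cells and 2.66, 2.72 and 5.9 in knockout cells (1.64 (SE 0.30)). Tfap2c, a transcription factor of trophoblast and germ cells, had 0.0576, 0.822 and 2.83 in wild type cells and 0, 0.888 and 3.45 in knockout cells on 53 cytosines up to position 249, not called. These keratins have processed pseudogenes that can share reads. Cdx2, which defines the trophoblast, was not listed in any library, and Gata3 reached 2.81 at most. A list filtered on its mean coverage keeps such low genes where replicate 3 is high, so the count of 4 of 4 carries no weight of its own.

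Of the neural list 5 of 16 genes were tested, with 2 above and 2 below both other libraries in both genotypes and a median of -0.06. Nes, nestin, an intermediate filament of neural progenitors, was called higher, with 2.84, 3.49 and 6.89 in wild type cells and 1.44, 1.77 and 5.02 in knockout cells (1.21 (SE 0.16)). Tubb3, the neuronal tubulin, had 15, 13.9 and 18.4 in wild type cells and 11.7, 9.79 and 14.2 in knockout cells, not called (0.37 (SE 0.11)). Ncam1, a neural cell adhesion molecule, went the other way on 14 cytosines, with 1.89, 0.744 and 0 in wild type cells and 3.28, 2.57 and 0.649 in knockout cells, and both replicate 3 libraries lay below all 4 others without being called (-1.68 (SE 0.36)). Sox1, a factor of neural progenitors, had 2.29, 2.12 and 1.62 in wild type cells and 0.296, 0.544 and 0.14 in knockout cells, lower within each genotype and not called (-0.43 (SE 0.35)). T (Brachyury), the mesoderm factor, was listed at 0 in all 4 libraries of replicates 1 and 2 and at 2.64 and 1.73 in wild type and knockout replicate 3, on 32 cytosines, and did not pass the filter. Sp5, a Wnt target, likewise had 0.0982, 0.365 and 2.14 in wild type cells and 0.536, 0.161 and 2.15 in knockout cells below the filter. Snai1, a zinc finger repressor of epithelial genes, had 0.546, 0.629 and 2.02 in wild type cells and 0.654, 0.576 and 2.03 in knockout cells, above all others and not called. It was the only gene tested of 15 on the mesendoderm list. Snai1 passed the filter only through replicate 3, so its place above the others carries no weight of its own. Primitive endoderm was not set apart: none of its 7 tested genes was called, Sox17 was not listed, and Gata4 and Gata6 stayed at 1.83 or below. Of its basement membrane genes, Lamc1, Lamb1 and Lama1 differed by -0.09, 0.21 and -0.51. Sparc, a matrix protein, differed by 0.51 and Lrp2, an endocytic receptor, by 0.55.

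In wild type replicate 3 the summed feeder coverage was the highest of the 6 libraries, 276, and in knockout replicate 3 it was the lowest, 122. Krt8, Krt19, Nes, Pou3f1 and T were all higher in knockout replicate 3 than in knockout replicates 1 and 2. The part of feeder RNA in their wild type values was not tested.

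**Figure D4:**
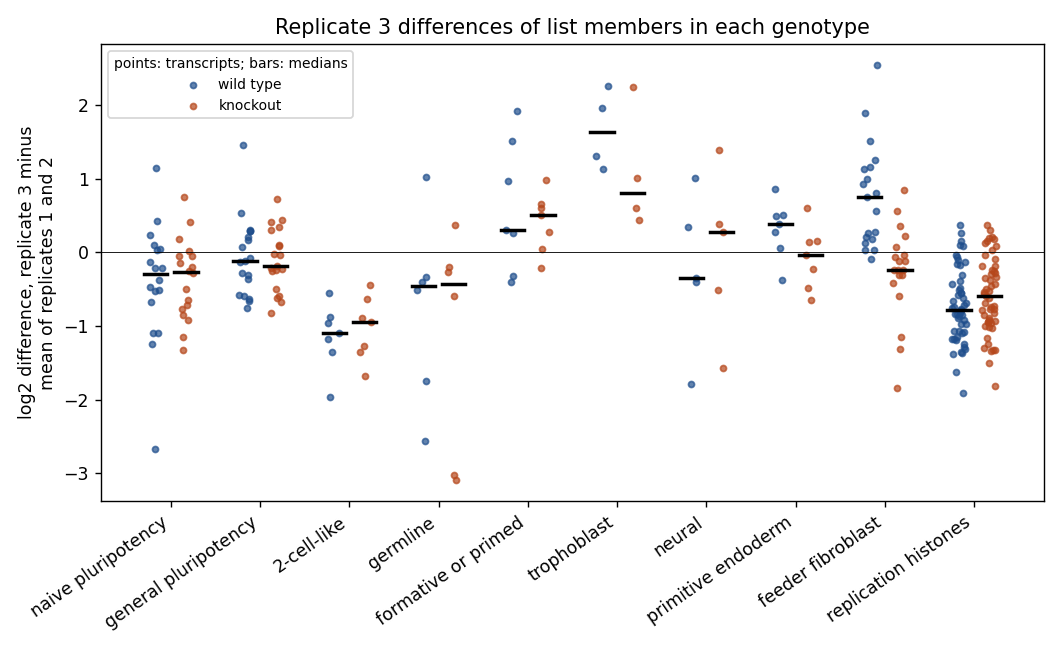
Log2 difference of replicate 3 from the mean of replicates 1 and 2 for the tested members of 10 lists, wild type and knockout side by side, 1 point per transcript, bars at the medians. The 2-cell-like and histone lists lie below 0 in both genotypes, the trophoblast list above 0 in both, and the feeder list's median is above 0 in wild type and below 0 in knockout.

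Signalling genes gave a mixed picture. Of 11 tested LIF and Stat3 genes none was called, and Socs3, the feedback inhibitor of the pathway, differed by -0.06. Gadd45g, a growth arrest gene, had 1.21, 1.63 and 1.07 in wild type cells and 2.66, 2.9 and 0.647 in knockout cells, below all 4 others in both replicate 3 libraries (-0.90 (SE 0.32)). The kinases Jak2 and Tyk2, read on 22 and 13 cytosines, differed by 0.78 and -1.11, and Pim3 by -0.12. Pim1, a kinase gene that Stat3 activates, lay below all 4 others at 24.9, 20.7 and 15.9 in wild type cells and 30.9, 27.8 and 20.5 in knockout cells without being called (-0.50 (SE 0.11)). Pim2, of the same kinase family, was among the 12 highest transcripts, with 1.64, 2.59 and 9.79 in wild type cells and 5.46, 5.01 and 11.9 in knockout cells (1.55 (SE 0.24)). Of the 9 tested FGF and ERK genes, Dusp4, a phosphatase that dampens ERK, was called higher with 5.63, 6.05 and 11.2 in wild type cells and 4.52, 4.21 and 9.41 in knockout cells (0.96 (SE 0.11)). Etv4, an ETS factor of the same pathway, was called lower (-0.61). Fgf4, the ligand made by stem cells themselves, differed by -0.16. Etv5, a relative of Etv4, differed by 0.19, and Spry2, Spry4 and Dusp6, feedback inhibitors, by 0.35, 0.35 and 0.35, none called.

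Among 12 tested BMP and Nodal genes 2 were called higher. Id1, a BMP target that inhibits differentiation, had 11, 11.7 and 15.7 in wild type cells and 9.65, 8.07 and 20.3 in knockout cells (0.81 (SE 0.17)), and both replicate 3 libraries exceeded all others. Lefty2, an inhibitor of Nodal, had 18, 18.4 and 26.9 in wild type cells and 8.55, 8.71 and 17.2 in knockout cells (0.75 (SE 0.12)), higher within each genotype but overlapping across them. Lefty1 and Nodal itself differed by 0.17 and 0.06, not called. Skil, a repressor of Smad signalling read on 38 cytosines, had 2.6, 0.897 and 0.476 in wild type cells and 1.43, 2.08 and 0 in knockout cells, below all 4 others in both replicate 3 libraries and not called (-1.62 (SE 0.47)). In the Wnt list, Ctnnb1 (beta-catenin), the effector of the pathway, was called higher (0.71), on cytosines up to position 407, and Axin2, a Wnt target, had 1.06, 1.15 and 1.76 in wild type cells and 1.01, 1.09 and 1.41 in knockout cells, not called. Tcf7, Nkd2 and Znrf3 differed by -0.22, -0.19 and -0.39, not called. Of 16 immediate-early genes Fosb was called lower, with 2.78, 5.12 and 1.18 in wild type cells and 4.2, 4.0 and 1.09 in knockout cells (-1.44 (SE 0.23)), while Jun had 8.75, 6.73 and 11.4 in wild type cells and 8.8, 7.7 and 12.4 in knockout cells and lay above all others, not called (0.56 (SE 0.13)). Fos was below all 4 others (-0.65), Ier3 and Ccn2 above all 4 (1.00 and 0.39), and Ier2 and Junb differed by -0.39 and 0.08, none of them called. Fzd2, a Wnt receptor outside that list, was among the 12 highest transcripts, with 3.86, 3.97 and 8.34 in wild type cells and 3.92, 2.94 and 7.41 in knockout cells (1.01 (SE 0.13)).

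Replication-dependent histone mRNAs formed the largest group with a shared direction. Of 53 tested, 36 were below both other libraries of their genotype in replicate 3 in both genotypes, beside 25.8% of all tested transcripts. Called lower were 13, beside 2.83%, and none was called higher, beside 1.81%. The median difference was -0.76. H4c1, a histone H4 gene, had 112, 61.2 and 21.7 in wild type cells and 163, 117 and 39 in knockout cells (-1.86 (SE 0.25)). H2bc4, an H2B gene, had 140.5, 66.7 and 39.4 in wild type cells and 205, 184 and 68.1 in knockout cells (-1.40 (SE 0.27)), and wild type replicate 2 lay just below knockout replicate 3 for it. The best covered members, H1f3, H1f1 and H4c4, differed by -0.60, -0.38 and -0.36. Both replicate 3 libraries lay below all 4 others for each of them, and none was called. H4c2 and H3c8 were also among the 12 lowest transcripts, with differences of -1.27 and -1.25. Histone genes are near-identical copies that can share reads, so their counts do not stand for as many separate genes.

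Every histone type held called genes: 3 of 11 tested H4 genes, 4 of 9 H3 genes, 3 of 14 H2A genes, 2 of 14 H2B genes and 1 of 5 H1 genes were called lower. H1f5, an H1 linker histone, had 217, 221 and 233 in wild type cells and 220.0, 193 and 225 in knockout cells, and H2ac20, an H2A gene, 7.5, 11 and 11.9 in wild type cells and 11.2, 8.91 and 13.1 in knockout cells, and for both genes replicate 3 lay above all 4 others. Wild type replicate 2, the other library with more coverage near the 5′ end, was also low in histones. The summed coverage of the list was 6463 and 4875 in wild type replicates 1 and 2, 3528 in replicate 3, 7066 and 5564 in knockout replicates 1 and 2 and 4218 in replicate 3. The part of RNA quality in this order was not tested. Of 16 mitosis genes none was called. Cdc20, an activator of the anaphase-promoting complex, lay above all 4 others (0.25), Mki67 and Top2a below all 4 (-0.54 and -0.35), and Ccnb1, Cenpe and Aurka, the last read up to position 183, differed by 0.02, -0.40 and -0.40. Of 14 tested replication genes only Mcm5, read up to position 221, was called (higher, 0.87), while Pcna, Mcm2 and Ccne1 of the replication list differed by 0.03, 0.13 and -0.06. Mcm7, Cdt1 and Cdc6, the last read up to position 232, differed by 0.13, -0.48 and 0.48, not called. Slbp, which binds the histone stem-loop, had 12.9, 5.09 and 2.89 in wild type cells and 11.7, 10.0 and 4.71 in knockout cells on 24 cytosines, below all 4 others in replicate 3 and not called.

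Promoter sequences are shown for histone genes with lower and with higher coverage in replicate 3, picked among those with a TATA element near the start. RefSeq promoters (GRCm38.p6, 250 bases before to 50 after the start) matched 49 of the 53 tested histones. The letters TATAAA, searched on both strands, were found in 32 of 49 (65.3%) and in 14.2% of 27025 promoters, and CCAAT, counted separately, in 85.7% and 37.9%. Of the 33 histones below in both genotypes 22 held TATAAA, and of the other 16 it was 10. A match is a description and not a shown site. In 14 of the 49 promoters it began 20 to 45 bases before the start on the gene's strand. Only these 14 were drawn on, so every line below holds it by choice. H4c1, H2bc4, H4c2 and H3c8, among the lowest histones, are not in that set. The first 3 lines are the lowest of those 14 genes and the last 3 the highest, 30 bases each, 5′ to 3′ on the strand of the gene, with the TATA element in capitals.
H2ac1 (chr13:23934393-23934422, plus strand): ctgccattagacTATAAAtaggcgtggtca
H3c2 (chr13:23752304-23752333, plus strand): atagtctgattgTATAAAaggtggacagcg
H3c10 (chr13:21717585-21717614, plus strand): ctcggccgtctgTATAAAttttggtggttg
H1f5 (chr13:21780636-21780665, minus strand): agcaccggcttaTATAAAccaggagcctga
H2ac22 (chr13:21787264-21787293, minus strand): cttggagaatccTATAAAggccaagctcct
H2ac20 (chr3:96220905-96220934, minus strand): cctaggagcgccTATAAAggccttagagac
The log2 differences of these 6 were -1.15, -0.98, -0.98, 0.11, 0.13 and 0.37, and only H2ac1 was called.

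Some genes of oxygen sensing and glycolysis were lower. Of 11 tested hypoxia genes 2 were called lower, beside 2.83% of all tested transcripts. The hypoxia list's median was -0.07 within wild type and -0.45 within the knockout. Bnip3, a mitophagy receptor induced by HIF, had 19.1, 15 and 8.3 in wild type cells and 23.6, 26.7 and 10.4 in knockout cells (-1.11 (SE 0.13)), and Egln3, a HIF prolyl hydroxylase, 4.14, 4.47 and 1.67 in wild type cells and 4.18, 4.33 and 1.94 in knockout cells (-1.05 (SE 0.13)). Ankrd37, another HIF target, lay below all 4 others without being called (-1.04 (SE 0.31)), and Ddit4 and Pdk1 differed by 0.22 and 0.10. Of 15 glycolytic genes Pfkp and Tpi1 were called lower (-0.90 and -0.53), beside 2.83% of all tested transcripts. The rest, with Gapdh at -0.03, were not called. Pkm, pyruvate kinase, lay below all 4 others (-0.34), Pgk1, Aldoa and Pgam1 differed by -0.48, -0.64 and -0.22, and Pfkm, read up to position 191, by -0.87. In the respiratory chain 12 of 88 tested genes were called lower, beside 2.83% of all tested transcripts, and 1 higher, beside 1.81%. The list's median was -0.09. Cox7b, a subunit of cytochrome c oxidase, had 56.3, 43.5 and 29 in wild type cells and 54.4, 62.3 and 34.6 in knockout cells (-0.75 (SE 0.13)). Ndufs1, a subunit of complex I read up to position 289, had 3.24, 1.54 and 0 in wild type cells and 2.87, 3.32 and 0.946 in knockout cells, Cox7a1 differed by -1.81 and Ndufa4l2 by -0.94, all called lower. The best covered, Atp5b, Atp5a1 and Cox6c, differed by -0.11, -0.16 and -0.14, not called. The gene called higher, Cox7c, was read only up to position 152.

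Of 80 tested ribosomal protein genes 4 were called lower, beside 2.83% of all tested transcripts, and 3 higher, beside 1.81%. In both genotypes 32 were below both other libraries, beside 25.8%, and 17 were above, beside 20.2%. The list's median was -0.08. Rps25 had 329, 288 and 199 in wild type cells and 340.5, 369 and 221 in knockout cells (-0.65 (SE 0.11)), and Rpl38 had 100.5, 111 and 178 in wild type cells and 86.5, 82.3 and 136 in knockout cells (0.72 (SE 0.09)). The 3 higher ones, Rpl38, Rpl34 and Rps27a, were read up to positions 163, 268 and 282 only, and the lower ones up to 218 to 545. Rpl22l1, read up to position 218, and Rps23 were called lower at -1.28 and -1.02. The best covered, Rps12, Rps20 and Rpl13, differed by 0.24, 0.07 and -0.06, not called. Stress responses held few calls: of 14 tested genes of the integrated stress response Chac1, a glutathione-degrading enzyme, was called lower (-1.43 (SE 0.28)), of 13 endoplasmic reticulum chaperone genes Herpud1 was (-0.88 (SE 0.16)), and none of 12 heat shock or 18 cholesterol synthesis genes was. Slc7a3, an amino acid transporter read up to position 229, and Psat1, of serine synthesis, read up to position 286, lay below all 4 others (-0.80 and -0.30, not called). Atf5, read on 10 cytosines up to position 140, had 0, 0.947 and 4.43 in wild type cells and 0, 0 and 1.21 in knockout cells. It passed the filter only through replicate 3. Asns and Slc3a2, the latter read up to position 227, differed by -0.10 and -0.22. Among chaperones Hsp90aa1, Hsp90b1, Hspa1a and Sdf2l1 lay below all 4 others (-0.36, -0.23, -0.56 and -0.74) and Hspa5 (BiP), read up to position 184, above all 4 (0.54), none called. Hspa8, Hspa4l, Calr and Xbp1 differed by 0.01, 0.54, -0.30 and -0.67. In cholesterol synthesis Hmgcs1, read up to position 230, and Lss lay above all 4 others (0.63 and 0.45), Fdps, read up to position 171, differed by -1.38, and Insig1 and Fdft1 by 0.10 and 0.16. Of 13 p53 targets Cdkn1a, the p21 cell cycle inhibitor, and Plk2, a polo-like kinase, were called higher. Cdkn1a had 6.44, 6.53 and 14 in wild type cells and 6.59, 6.6 and 11.1 in knockout cells on cytosines up to position 191, and Plk2 8.31, 7.76 and 11.9 in wild type cells and 7.73, 7.89 and 11.3 in knockout cells. Phlda3 lay above all 4 others (0.49, not called), and Bax, Ccng1 and Gdf15 differed by 0.06, 0.06 and -0.55.

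Several of the transcripts that differed most belong to no list. Mest, an imprinted gene expressed from the paternal allele in mesoderm, had 3.21, 5.02 and 13.3 in wild type cells and 2.48, 1.35 and 7.99 in knockout cells (1.73 (SE 0.24)), on 26 cytosines up to position 345. Arl4c, a small GTPase, had 1.82, 2.48 and 7.67 in wild type cells and 4.22, 4.59 and 9.91 in knockout cells (1.36 (SE 0.17)) over 733 cytosines. Cd24a, a surface antigen, had 7.22, 5.17 and 13.5 in wild type cells and 3.73, 4.83 and 9.35 in knockout cells (1.07 (SE 0.16)). Replicate 3 was above the other libraries in all 3.

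Lims1, a focal adhesion protein, and Shc1, an adaptor of receptor tyrosine kinases, were called higher at 1.19 and 1.15, and Aldh7a1 at 1.51, read up to positions 295, 186 and 163. Nadk, the kinase that makes NADP, was read up to position 284 and called higher at 1.19, and with cytosines beyond position 200 it differed by 0.14. Gtf2e2 and Hnrnpk, read up to positions 126 and 146, and Ugt3a1 ranked with the 12 highest and were not called. At the low end stood Lrtm1, read on 8 cytosines and listed at 0 in both replicate 3 libraries against 6.77 to 14.6 in the others. Mymx, a muscle fusion peptide, Tuba3a, a testis alpha-tubulin, and Isoc2a were called lower at -1.85, -1.36 and -1.24. Mymx had 6.09, 4.86 and 1.71 in wild type cells and 8.36, 7.8 and 1.27 in knockout cells, and its groups did not overlap. It was read up to position 257.

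Non-conversion was not used to choose the replicate, and was tested. It was compared with the edgeR quasi-likelihood test on non-converted and converted reads, with genotype as a covariate, at the 8186 cytosines covered by at least 10 reads in each of the 6 libraries and non-converted in 5% of reads or more on average. In replicate 3, 54 cytosines in 22 transcripts were higher (0.66%) and 2 lower (0.0244%). The average includes replicate 3, so cytosines low in replicates 1 and 2 passed the filter where replicate 3 was high. The excess of higher over lower cytosines therefore carries no weight of its own. Over all 8186 cytosines both replicate 3 libraries exceeded all 4 others at 849 (10.4%) and lay below all 4 at 535 (6.54%). Of the called ones, 45 of 56 lay within 20 nt of another called one. The matching share among all 8186 tested cytosines was not computed. Neighbouring cytosines can lie on the same reads, so the closeness of called ones carries no weight of its own. The strongest were in Rad23b, which escorts ubiquitylated proteins to the proteasome. Position 307 of the transcript (NM_009011.4, counted from the 5′ end) was non-converted in 3.55%, 3.28% and 45.5% of reads of wild type cells and in 11.7%, 11.1% and 45.7% of reads of knockout cells, at a coverage of 99 to 300 (edgeR adjusted p = 5.17e-14). The neighbouring positions 305, 306 and 308 followed, at 42.6 to 47.9% in replicate 3 against 4.76 to 13.5% in the others. At positions 300, 301 and 311, in the same stretch, non-conversion was 0 to 4.70% in replicate 3.

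Eif4ebp1, the translational repressor that binds eIF4E, had a second run. Its position 191 was non-converted in 1.45%, 1.69% and 22.4% of reads of wild type cells and in 1.59%, 2.20% and 12.1% of reads of knockout cells (edgeR adjusted p = 2.49e-13). At a mean of 1.73% in replicates 1 and 2, this position passed the filter only through replicate 3, which its p does not allow for. Wild type replicate 3 lay above knockout replicate 3 at position 191, a difference that was not tested. Outside the 5 cytosines of smallest adjusted p, Trim71 and Ube2d2a were chosen after their values were seen. Trim71, the Lin41 ubiquitin ligase that let-7 represses, was raised at positions 285 to 292 from 16.7 to 34.6% in replicates 1 and 2 to 56.4 to 63.4% in replicate 3. The cytosines of Ube2d2a at positions 224 and 225 were raised in wild type replicate 3 alone, at 47.4% and 50% against 2.44% and 4.88% in knockout replicate 3.

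**Figure D5:**
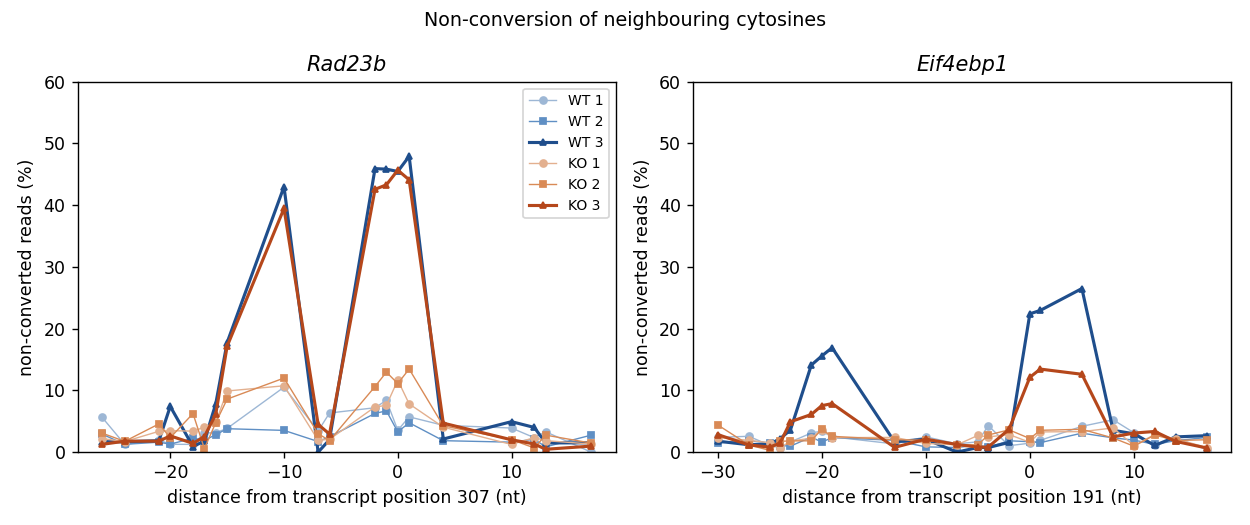
Non-converted reads (%) at neighbouring cytosines of Rad23b (left) and Eif4ebp1 (right) by distance in nt from transcript position 307 or 191, 1 line per library, thick lines for replicate 3. In Rad23b both replicate 3 lines reach 39.5 to 47.9% at 5 cytosines and stay at 5% or below in between, where the other libraries stay at 13.5% or below throughout.

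The pooled non-conversion of low cytosines (10% or less) was 1.5% and 1.42% in wild type and knockout replicate 3 and 1.45 to 1.77% in the others, so that replicate 3 differed by -0.18 percentage points (two-sided exact permutation p = 0.267, where 2 libraries against 4 can reach 0.133). The number of higher cytosines depended on single libraries. It was 18 without wild type replicate 1, 29 without wild type replicate 2, 7 without wild type replicate 3, 20 without knockout replicate 1, 22 without knockout replicate 2 and 45 without knockout replicate 3, over other sets of cytosines.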

How the data were processed

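The deposited long-fraction files hold, per the file headers, a coverage count of reads for each cytosine of a RefSeq mRNA and the fraction of them left unconverted. The lowest coverage is 3. BSMAP and mm9 are named in the submitters' processing notes. The version of the aligner is not given in the sources used here. Each library was thinned at random per cytosine to the depth of wild type replicate 3, the minimum of 3 was applied again, and transcript means over listed cytosines were scaled by TMM (edgeR 4.0.16), filtered at a mean of 1 and fitted with limma 3.58.1 (trend) on log2(value + 0.5), with genotype as a covariate and 3 residual degrees of freedom. A read counts once per cytosine, so means are not read counts and no count test was run on them. Non-converted reads, whole within a tolerance of 0.01, were tested with edgeR. Scripts were tested on simulated data: edgeR recovered 9 of 100 cytosines changed by a log2 odds ratio of 2 and 26 of 100 changed by 3, among 8186.

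The labels name no molecular identifiers, so the reads counted may include copies of 1 molecule. Symbols of 15239 references came from RefSeq (GRCm38.p6). The members and lists were chosen with earlier results of these data known. Named by rule, 1 transcript a gene, were the 12 highest and 12 lowest transcripts at a mean of 5 or more by the smaller within-genotype difference, in each list the 3 best covered and the 3 that differed most, defining genes, the 5 transcripts of smallest interaction p and the 5 cytosines of smallest p. Some genes that this rule picks are not reported here. Other list members were named after their values were seen. The undepleted libraries were not used here. Alternatives tried were scaling, filters, pseudocount, no thinning, no genotype term, 1 genotype alone, left-out libraries and, chosen after seeing the data, cytosines beyond position 200 and a replicate block.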

Additional observations from a re-analysis of the deposited data

Results flagged for a closer look

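The difference of replicate 3 was called as depending on genotype for 3 transcripts in limma's interaction test, and each had no listed cytosine in knockout replicate 3 only. Each genotype has 1 library numbered 3, and coverage chose it, so these are given as values without p. Nup205, a nuclear pore scaffold protein, had an interaction of -5.38 on the log2 scale, with coverage of 18.2 to 22.9 in the other 5 libraries. Trappc1, a vesicle tethering subunit, had -4.46, with 6.59 to 9.40 elsewhere. Crls1, cardiolipin synthase, had -4.18, with 8.74 to 9.76 elsewhere. Mgl2, a macrophage lectin, had 2.19 on 17 cytosines, not called.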

How the results depend on the processing

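A replicate block, fitted as a replicate factor of 3 levels with replicate 3 set against the mean of 1 and 2 and added after seeing the data, gave 58 transcripts higher and 110 lower, 5 interaction calls, and 29 cytosines higher and 1 lower in non-conversion. Replicate 1 minus replicate 2 had r of -0.07 between wild type and knockout across all 9047 transcripts, a wider set than the 3734 used for replicate 3. That value holds for replicates 1 and 2 only, as replicate 3 does not enter it. Over the fits that left out a library in turn, transcripts called higher ranged from 0 to 180 and lower from 1 to 280, interaction calls from 0 to 1, cytosines higher in non-conversion from 7 to 45 and lower from 0 to 2. Cytosines listed in all 6 libraries gave 261 transcripts higher, and a filter at a mean of 10 gave 153 lower. With no genotype term 18 were higher and 48 lower. Within wild type or knockout alone, 3 libraries each, limma called 0 in either direction, with an unadjusted p under 0.05 for 1161 and 1549. A filter at a mean of 5 gave 5 interaction calls. For non-conversion, coverage of 20 or more gave 10 lower of 1698 cytosines, no genotype term gave 1 lower, and a mean of 1% or more gave 30 higher and 4 lower of 535267. The feeder list's median was 0.05 under a filter at a mean of 5 (8 genes), 0.08 at a mean of 10 (5 genes) and 0.21 with a pseudocount of 2, in place of 0.38. That of the general pluripotency list was -0.04 without thinning in place of -0.16, that of the 2-cell-like list -0.73 with a pseudocount of 2 in place of -1.11, and that of the respiratory chain ran from -0.01 without thinning to -0.18 with cytosines listed in all 6 libraries. The cause of these shifts was not tested. Coverage of 3 or more is listed, so low lineage genes are seen in part only.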

Other observations

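Further well-covered transcripts were unlisted in single libraries: Mtg1 in knockout replicate 3, Mtrex in knockout replicate 2, and Hsp90ab1, Ccdc59 and Nacc1 in wild type replicate 2. In the small RNA fraction, whose libraries carry the same replicate numbers, pooled non-conversion of low cytosines was 2.06% and 2.14% in wild type and knockout replicate 3 and 1.77 to 1.95% in replicates 1 and 2, a difference of 0.26 percentage points with no overlap (two-sided exact permutation p = 0.133, which is the least that 2 libraries against 4 allow). In the long fraction the difference with genotypes pooled had the other sign, but wild type replicate 3 lay between wild type replicates 1 and 2.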
